A study of Mus musculus with 12 samples.

Results

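The RNA of 4 control mouse livers was ranked gene by gene, from the most abundant transcript to those not detected. The 4 libraries are the columns of the deposited TPM table named Control, out of 12 libraries in 3 groups of 4. TPM, a unit of relative transcript number, divides the reads of a gene by its length and scales each library to the same total, so that levels of different genes can be set side by side within a library. The table lists 55903 genes. The labels give tissue, liver, and condition, young, for these 4 samples, and their titles call them young control. The labels of the second group name it an aged control in the titles and doxo in the descriptions, and it is written aged/doxo here. The third group is titled KSL0608-Se-treated and described as doxo with KSL0608-Se, a compound known here only by its code. No label states strain, sex, age in numbers, dose or feeding state, or whether each library is 1 animal, so the spread between libraries may be partly technical. The ranking is a description of the 4 control libraries. The other 8 enter only where it is tested whether a part of the ranking differs from them.

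Hepatocytes make up most of the liver's mass and secrete most plasma proteins, among them albumin, the apolipoproteins that carry lipids, transferrin and the protease inhibitors of the serpin family. They also hold the urea cycle, gluconeogenesis, fatty acid oxidation and the detoxifying cytochrome P450 enzymes. In mice the liver also makes major urinary proteins (Mup), small lipocalins that bind pheromones, pass into the urine and are encoded by a cluster of near-identical genes on chromosome 4.

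The label liver was met by the markers looked at. All 10 hepatocyte markers had a mean of 1 TPM or more and summed to 60940 ± 9299 TPM (SD, n = 4). The sum was 47484 TPM in library 1 and 68802, 63074 and 64399 TPM in libraries 2, 3 and 4. Library 1 stood apart from libraries 2, 3 and 4. It is named beside some of the results that it moves, but not beside every mean and SD. Of the 4144 genes with a mean of 10 TPM or more, 3146 (75.9%) had their lowest value in library 1, 584 in library 2, 262 in library 3 and 152 in library 4. Library 1 held 9568 genes at 1 TPM or more, against 10789, 10263 and 10785 in libraries 2, 3 and 4. Spearman's rho across genes was between 0.877 and 0.920 for the pairs with library 1 and between 0.941 and 0.956 for the pairs without it, as a description with genes not independent of each other. Relative to the mean of the other control libraries on the log2 scale, transcripts longer than 4000 bases lay lower in library 1 by a median of 0.62. They lay higher in library 2 by 0.45. The corresponding medians were -0.03 in library 3 and 0.20 in library 4. The part that transcript length plays in the values of library 1 was not tested. Depth is unknown, since TPM keeps no read counts, and no counting interval was computed.

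Sequences bear on the ranking in the gene copies that can hardly be told apart and in the promoters of abundant genes. A block on chromosome 1 (GRCm38, chr1:24612407-24616197, minus strand, 3791 bases) is annotated with 6 unprocessed pseudogenes that are copies of mitochondrial genes. Of these, 4 match the mitochondrial gene at every aligned base. Gm28438, the copy of mt-Nd3, differs by a single substitution, T3C, where the mitochondrial base comes first and positions are counted from 1 at the first base of the gene. The first 41 bases of mt-Nd3, which encodes a subunit of respiratory complex I, and of its copy Gm28438 are shown because a read has to cover the capital letter to tell them apart.
mt-Nd3: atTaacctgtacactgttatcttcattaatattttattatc
Gm28438: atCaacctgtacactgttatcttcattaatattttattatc

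The promoters of 4 abundant genes are shown as the 100 bases before the RefSeq transcript start (GRCm38.p6, read 5′ to 3′ on the gene's strand). Capitals mark matches to 3 short motifs on either strand: the CCAAT box (CCAAT or ATTGG), the HNF4 site core (AAGTCCA or TGGACTT) and the GC box (GGGCGG or CCGCCC). HNF4 is a hepatocyte transcription factor. Albumin (Alb, chr5:90460770-90460869, plus strand) held CCAAT boxes beginning 56 and 15 bases before the start. Apolipoprotein A-II (Apoa2, chr1:171224954-171225053, plus strand) and Mup3 (chr4:62087318-62087417, minus strand) held an HNF4 site core each, 48 and 32 bases before the start. Hpd, an enzyme of tyrosine breakdown, is shown for contrast (chr5:123182724-123182823, minus strand), with a GC box 55 bases before the start.
Alb: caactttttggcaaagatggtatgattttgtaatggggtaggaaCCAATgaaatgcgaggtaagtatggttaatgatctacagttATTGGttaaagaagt
Apoa2: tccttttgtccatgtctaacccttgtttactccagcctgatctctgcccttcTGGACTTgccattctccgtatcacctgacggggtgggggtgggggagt
Mup3: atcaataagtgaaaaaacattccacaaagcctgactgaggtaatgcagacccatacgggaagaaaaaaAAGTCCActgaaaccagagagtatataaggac
Hpd: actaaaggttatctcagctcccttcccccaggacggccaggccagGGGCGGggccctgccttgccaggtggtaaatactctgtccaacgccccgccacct

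A few genes held most of the RNA when it is counted in TPM. The 10 genes of highest mean held 29.9%, 24.7%, 27.5% and 24.9% of TPM in libraries 1 to 4, which is 26.7 ± 2.46% (SD, n = 4). The 100 highest held 72.5%, 62.5%, 66.1% and 62.3%, or 65.9 ± 4.77%. The share was highest in library 1, and libraries 2 and 4 were alike. Counted down from the top of each library, 25, 42, 34 and 42 genes were needed to reach 50% of TPM, and 732, 1400, 1135 and 1368 genes to reach 90%. In the same libraries 24, 16, 20 and 18 genes stood at 10000 TPM or more.

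**Figure D1:**
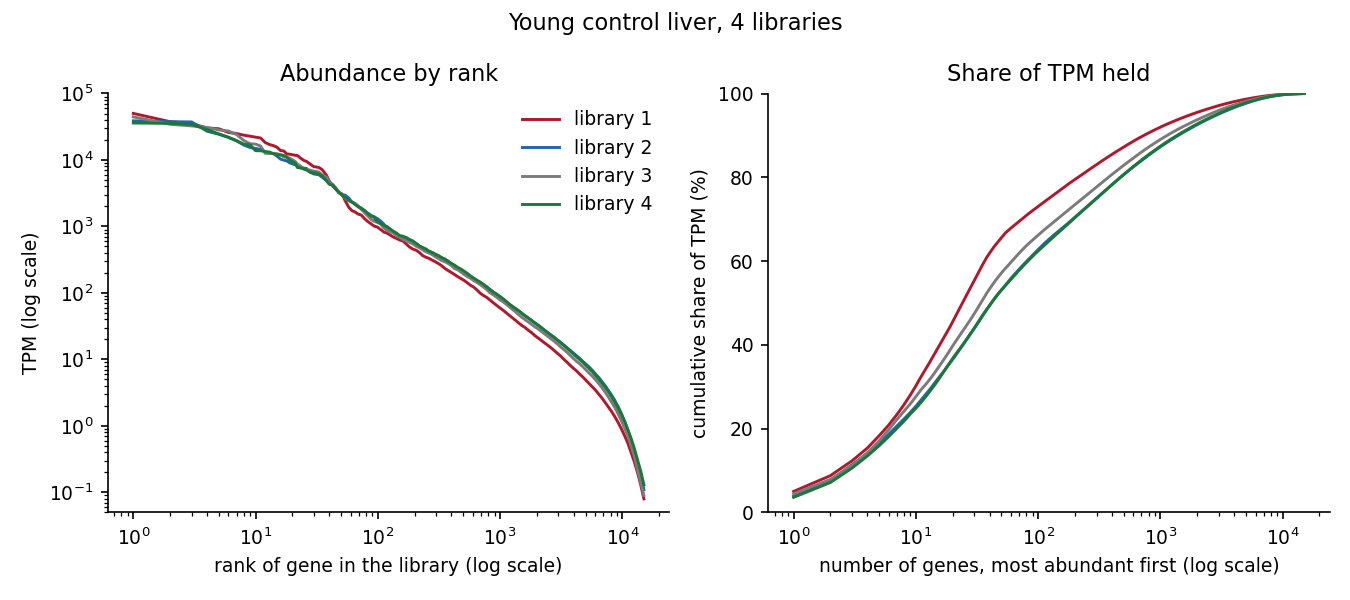
Left, TPM of each gene against its rank in each young control library (both axes logarithmic), with 1 line per library. Right, the cumulative percent of TPM against rank, where library 1 reaches 50% after 25 genes and libraries 2 and 4 after 42.

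The fall from the top was steep. The mean level was 40167 TPM at rank 1, 17269 at rank 10, 1129 at rank 100, 78.5 at rank 1000 and 7.36 at rank 5000. The gene at rank 100 was thus 35.6-fold below the first, and the gene at rank 5000 was 5457-fold below it. Bins of mean level show the same: 21 genes above 10000 TPM held 40.2% of TPM, 91 genes between 1000 and 10000 TPM held 27.0%, and 713 genes between 100 and 1000 TPM held 20.1%. The 3319 genes between 10 and 100 TPM held 10.0%, and the 6443 genes between 1 and 10 TPM, the most numerous bin of detected genes, held 2.56%.

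Membership at the top was shared more than the order. Of the 10 highest genes of each library, 7 were in the 10 highest of all 4, and 79 genes were in the 100 highest of all 4 against 124 in any. Leaving out library 1 kept all 10 of the 10 highest by mean, 28 of the 30 highest and 97 of the 100 highest. By mean, 95 of the 100 highest control genes were also among the 100 highest of aged/doxo liver and 97 among those of KSL0608-Se-treated liver.

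The first rank belonged to Mup7, a major urinary protein gene (GRCm38 chromosome 4, 60066469 to 60070475). Its level was 50186, 37332, 44427 and 28720 TPM in libraries 1 to 4, a mean of 40167 ± 9266 TPM (SD, n = 4). It ranked first in libraries 1 and 3, the third in library 2 and the fourth in library 4, so that no single gene led everywhere.

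Albumin, the main carrier protein of blood plasma (Alb, chromosome 5, 90460897 to 90476602), followed with 21956, 38779, 34416 and 35493 TPM. Library 1 was well below the other libraries, in which albumin ranked first or second. Apolipoprotein E (Apoe, chromosome 7, 19696109 to 19699188), the ligand through which lipoprotein remnants are taken up, had 25956, 37664, 32544 and 34204 TPM. Apolipoprotein A-II (Apoa2, chromosome 1, 171225054 to 171226379), a high-density lipoprotein component, had 35315, 27125, 30929 and 36010 TPM. The means of these 3 genes, 32661 ± 7374, 32592 ± 4911 and 32345 ± 4144 TPM, lay within their own SDs. Within libraries, albumin was above Apoe in libraries 2, 3 and 4 and below it in library 1. Apoa2 was above both in libraries 1 and 4 and below both in libraries 2 and 3, so ranks 2 to 4 had no resolved order over the 4 libraries. Without library 1 the means of Mup7 and Alb were 36827 ± 7866 and 36229 ± 2273 TPM (n = 3), and the first rank was not resolved either.

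**Figure D2:**
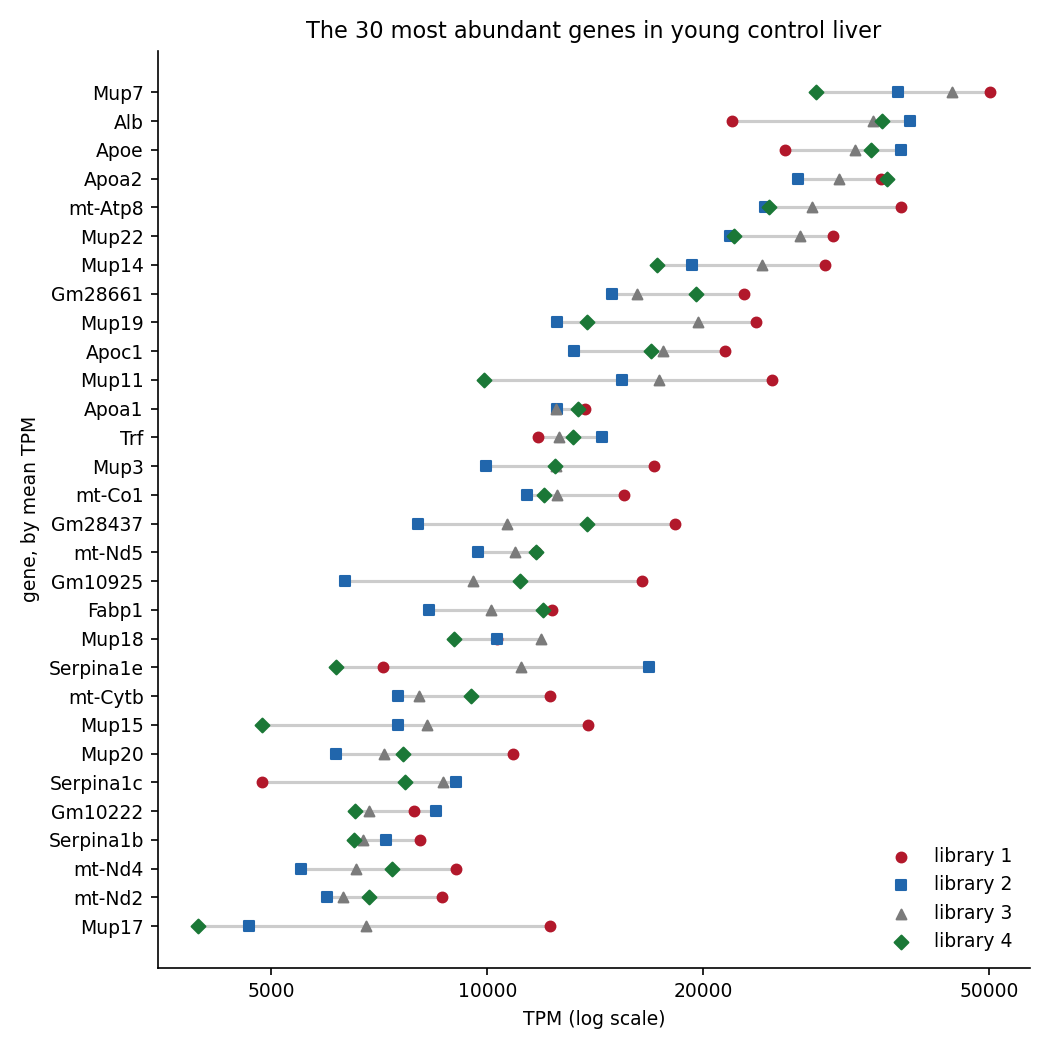
TPM of the 30 most abundant genes on a logarithmic axis, ordered by mean, with a symbol for each of the 4 young control libraries and a grey line from the lowest to the highest. Mup7 has the highest mean (40167 TPM) and Mup17 the lowest of the 30 (6900 TPM), and 21 of the 30 genes have their highest value in library 1.

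Rank 5 was mt-Atp8, a mitochondrially encoded subunit of ATP synthase, with 28770 ± 6182 TPM. Its transcript has 204 bases, and TPM divides by length, so its place depends on the unit. Mup22 (25337 ± 4152 TPM), Mup14 (22552 ± 5460 TPM) and Mup19 (17391 ± 5209 TPM) filled ranks 6, 7 and 9. Rank 8 was Gm28661, a chromosome 1 copy of mt-Co2, with 18352 ± 3536 TPM. Rank 10 was Apoc1, a small apolipoprotein of triglyceride-rich particles, with 21408, 13225, 17548 and 16893 TPM.

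Of the 30 highest genes, 4 had a coefficient of variation (CV, the SD as a percent of the mean) under 10%. Apolipoprotein A-I (Apoa1), the core protein of high-density lipoprotein, had 13685, 12492, 12448 and 13361 TPM, a CV of 4.79%. Transferrin (Trf), the iron carrier of plasma, had 11768, 14467, 12584 and 13156 TPM. Their means, 12997 ± 622 and 12994 ± 1136 TPM, did not differ beyond their spread. Fabp1, the liver's fatty acid binding protein, stood at 10670 ± 1863 TPM, and the antitrypsin gene Serpina1e at 7169, 16821, 11150 and 6161 TPM. Serpina1e was highest in library 2 and lowest in library 4, a range that spans ranks held by many other genes. By kind, 10 of the 30 were Mup genes, 6 mitochondrially encoded, 4 apolipoproteins, 4 chromosome 1 copies and 3 serpins, with Alb, Trf and Fabp1 making up the rest.

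Weighting each gene by length gives its share of sequenced bases instead of its share of molecules. On that scale Alb came first with 4.83%, followed by Mup7 with 3.02%, Apoe with 2.89% and Trf with 2.21%. The 10 highest genes then held 21.2% of bases in the mean profile and 70 genes were needed for 50%. This unit was chosen after the values were seen.

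Genes were grouped into 23 classes that share no gene, and each class is given as a percent of TPM. Major urinary proteins came first with 26.6%, 16.2%, 20.6% and 15% in libraries 1 to 4 (19.6 ± 5.26%, SD, n = 4), and 17.3 ± 2.95% without library 1. Apolipoproteins followed with 10.9%, 10.3%, 10.6% and 11.4% (10.8 ± 0.478%) and a spread far smaller than that of Mup. Mitochondrially encoded genes held 12.4%, 8.10%, 9.32% and 9.42% (9.82 ± 1.84%). The share of library 1 was the highest of the 4 for Mup and mitochondrial genes and the lowest for 18 of the 23 classes. Shares of a fixed total cannot all rise, and the Mup and mitochondrial shares enter every other share through that total.

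**Figure D3:**
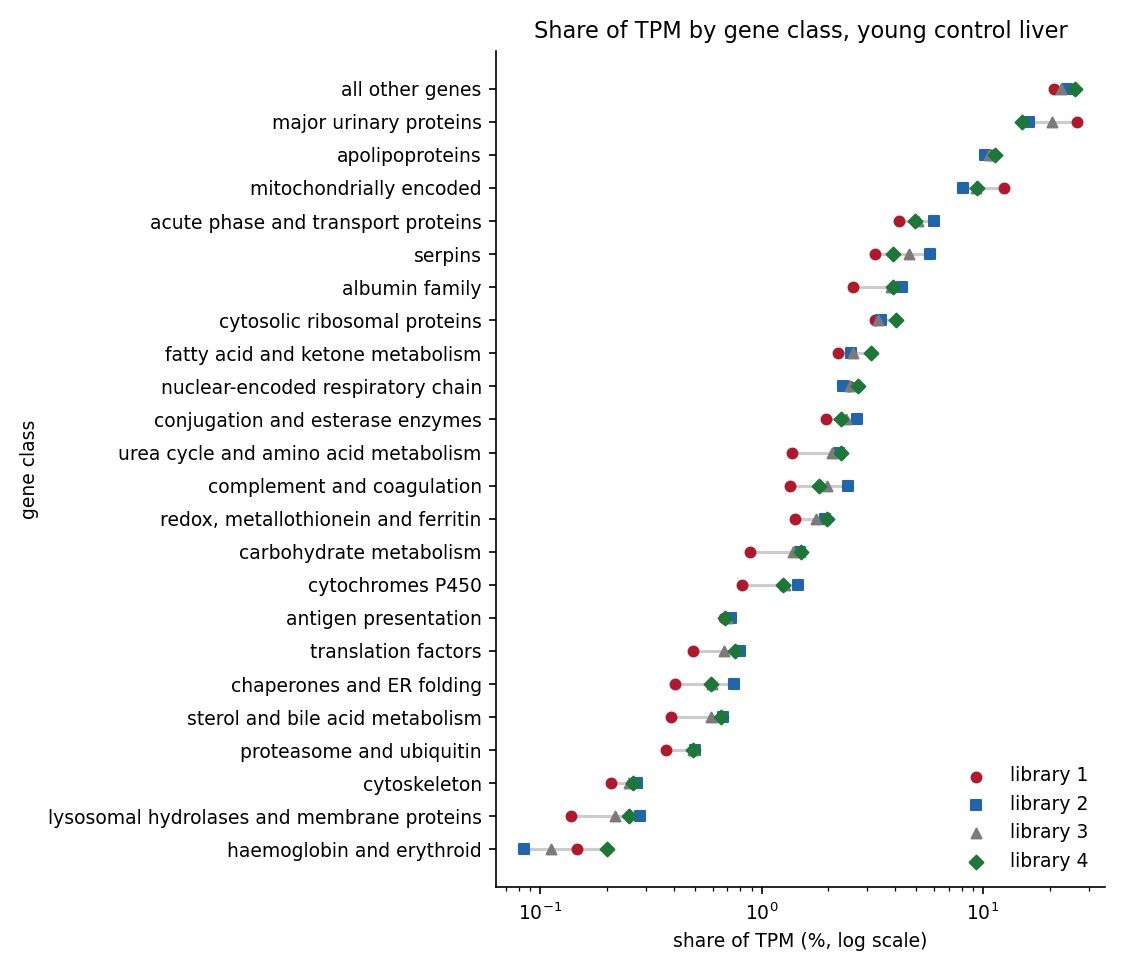
Percent of TPM held by each gene class on a logarithmic axis, with a symbol for each of the 4 young control libraries and a grey line from the lowest to the highest. Major urinary proteins span 15% to 26.6%, while apolipoproteins stay between 10.3% and 11.4%.

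The next classes were secreted proteins of blood plasma. Acute phase and transport proteins held 5.05 ± 0.740%, serpins 4.40 ± 1.08%, the albumin family 3.66 ± 0.751%, and complement and coagulation factors 1.90 ± 0.464%. With the apolipoproteins these classes summed to 25.8 ± 2.67%, and with Mup to 45.4 ± 3.36%. In library 1 the albumin family held 2.58%, against 4.31%, 3.84% and 3.92% in the other libraries.

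Members of these classes showed which genes carried them. Transthyretin (Ttr), the carrier of thyroid hormone and of retinol-binding protein, stood at 6732 ± 524 TPM. Retinol-binding protein itself (Rbp4) was at 4085 ± 717 TPM. The iron regulator hepcidin (Hamp) was at 1678, 5417, 2193 and 1860 TPM, with library 2 alone high. The vitamin D binding protein Gc was at 3887 ± 240 TPM, the fetuin gene Ahsg at 4458 ± 1228 TPM, and alpha-fetoprotein (Afp), albumin's fetal relative, at 0.703 TPM. The 3 fibrinogen chains, which form the clot, had means of 2106 (Fgg), 1936 (Fga) and 1171 TPM (Fgb). Fga stood at 655, 3090, 2248 and 1752 TPM, lowest in library 1 and highest in library 2.

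Among serpins, the Serpina1 antitrypsin copies on chromosome 12 held most of the class. Serpina1e had 10325 TPM, Serpina1c 7565, Serpina1b 7129, Serpina1a 4707 and Serpina1d 3115 TPM as means of 4. Serpina3k, a relative of antichymotrypsin, had 6751 TPM. The Serpina1 genes are close copies, so how reads were divided between them is uncertain.

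Metabolic enzyme classes together held 11.8 ± 1.89% of TPM, with 9.06% in library 1 and between 12.1% and 13.1% in the others. Fatty acid and ketone metabolism held 2.61 ± 0.368%. Of that, Fabp1 made up 40.8%. Scp2, a peroxisomal thiolase and sterol carrier, stood at 1842 ± 624 TPM, and the desaturase Scd1 at 332, 1414, 1229 and 2389 TPM, lowest in library 1 and highest in library 4. Conjugation and esterase enzymes held 2.34 ± 0.308%, led by the glutathione transferases Gstp1 (5911 ± 1301 TPM) and Mgst1 (5459 ± 470 TPM).

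The urea cycle and amino acid class held 2.00 ± 0.425%. Ass1, which makes argininosuccinate in the urea cycle, stood at 2054 ± 462 TPM and arginase 1 (Arg1) at 913 ± 88.1 TPM. Cps1, the first enzyme of the cycle, stood at 152, 718, 403 and 362 TPM. Glycine N-methyltransferase (Gnmt) stood at 367, 2280, 1818 and 2103 TPM, with library 1 far below the rest. Carbohydrate metabolism held 1.32 ± 0.294%, with Aldh2 (1950 ± 227 TPM) and Gapdh (1617 ± 304 TPM) among its highest members.

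Cytochromes P450, the oxidases of drugs and steroids, held 1.20 ± 0.273%. Cyp2e1, which oxidises ethanol, had 2069, 3557, 3245 and 2975 TPM and made up 24.6% of the class. Cyp3a11 was at 1322 ± 276 TPM and Cyp2d9 at 1068 ± 296 TPM. Cyp2c29, another such oxidase, stood at 116, 905, 753 and 763 TPM. Ferritins and redox genes held 1.77 ± 0.249%, led by the ferritin light chain Ftl1 (4428 ± 449 TPM), glutathione peroxidase Gpx1 (2376 ± 467 TPM) and superoxide dismutase Sod1 (2096 ± 106 TPM).

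The machinery of protein synthesis held less than the secreted products. Cytosolic ribosomal proteins held 3.53 ± 0.348% over 91 genes, of which 84 had a mean of 1 TPM or more, with Rpl13a highest at 1505 ± 203 TPM. Translation factors held 0.682 ± 0.138%, and 34.0% of that was Eef1a1, which brings aminoacyl-tRNA to the ribosome. Chaperones and folding enzymes of the endoplasmic reticulum held 0.586 ± 0.140%, led by P4hb. Nuclear genes of the respiratory chain held 2.51 ± 0.168% over 119 genes, of which none reached the 100 highest. Antigen presentation genes held 0.697 ± 0.0230%, with B2m, the light chain of class I molecules, at 2762 ± 246 TPM and H2-K1 at 1652, 1606, 1576 and 1581 TPM.

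Major urinary protein genes occupied 16 of the 100 highest ranks. The class has 49 annotated members, 22 of them protein-coding, and 20 of those stood at a mean of 1 TPM or more. All 20 lie between 59964294 and 62150863 on chromosome 4 (GRCm38). The 16 genes above 1000 TPM held 99.05% of all Mup TPM, and Mup7 alone held 20.5%.

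Mup transcripts resemble each other closely, which bears on each single value. Each of the 20 was aligned to its nearest relative, and identity ran from 90.8% to 99.6% with a median of 99.3%. In 14 of the 20 it was at least 99%. How the authors' counting divided reads between such copies is uncertain, and the class sum is safer than its members. Mup20, which encodes the male pheromone darcin, is among the more distinct with 90.8% identity to Mup4, and stood at 10862, 6149, 7190 and 7621 TPM. Mup3, 94.9% identical to Mup21, stood at 17065, 9945, 12477 and 12442 TPM.

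Of the 19 protein-coding Mup genes at 100 TPM or more, 18 had their highest value in library 1, and all 19 had their lowest in library 2 (9 genes) or library 4 (10 genes). The exception was Mup18, with 10320, 10303, 11894 and 8997 TPM, which was highest in library 3. The widest spread among them was in Mup2, with 3235, 591, 1100 and 810 TPM (CV 85.0%). Mup11 ran from 9888 TPM in library 4 to 24953 TPM in library 1. At the low end, Mup4 and Mup5 stood at 0.413 and 0.930 TPM.

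Genes known to be higher in male than in female mouse liver were all detected, whereas most genes known for the opposite bias were near 0. Of 17 listed male-biased genes found in the table, 17 had a mean of 1 TPM or more. Apart from Mup genes and Gstp1, these included Cyp2d9, the fatty acid elongase Elovl3 (464 ± 125 TPM), the steroid dehydrogenase Hsd3b5 (232 ± 56.2 TPM) and Cyp4a12a (202 ± 32.4 TPM). Of 18 female-biased genes, 4 had a mean of 1 TPM or more, Cyp2b13 highest at 8.72 ± 4.50 TPM, and Cyp3a16, A1bg, Sult2a1 and Sult3a1 were listed at 0 in all 4 libraries.

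The mitochondrial genome encodes 13 proteins, and all of the 37 mitochondrial genes together held 9.82% of TPM. Of the protein genes, 7 have no annotated copy in the chromosome 1 block, but they were not aligned to the block's sequence. Their levels were led by mt-Atp8. Next were mt-Nd5 (10996 ± 933 TPM), mt-Cytb (9309 ± 2114 TPM), mt-Nd4 (7120 ± 1490 TPM), mt-Nd2 (6938 ± 1191 TPM) and mt-Nd1 (6152 ± 1320 TPM). The lowest was mt-Nd6, with 2539 ± 507 TPM and the only one of the 13 encoded on the other strand. The ribosomal RNAs mt-Rnr1 and mt-Rnr2 stood at 686 ± 285 TPM and 372 TPM, and all 22 mitochondrial tRNA genes were listed at 0.

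The other 6 mitochondrial protein genes have a near-identical counterpart in the chromosome 1 block, a comparison chosen after the values were seen. Gm28661 aligned over 681 of 681 bases to mt-Co2 without a mismatch, Gm28437 over 783 bases to mt-Co3, Gm10925 over 678 bases to mt-Atp6 and Gm10222 over 294 bases to mt-Nd4l. Gm28438 matched mt-Nd3 at 344 of 345 bases (99.7%, T3C). Gm29216 matched mt-Co1 at 482 of 483 bases, over positions 1063 to 1545 of that gene, with the substitution A1066T.

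The listed level of these copies was often above that of the mitochondrial gene. The copy Gm28661 stood at 22778, 14913, 16184 and 19534 TPM. Its partner mt-Co2, a core subunit of cytochrome oxidase, was listed at 459, 639, 343 and 360 TPM, so that the copy took 95.9% to 98.2% of the pair's TPM. The copy's share was 89.5% to 91.8% for mt-Atp6, 88.2% to 91.9% for mt-Co3 and 68.0% to 74.2% for mt-Nd4l. It was the smaller part for mt-Nd3, 25.6% to 34.5%, and for mt-Co1, 8.76% to 37.9%.

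**Figure D4:**
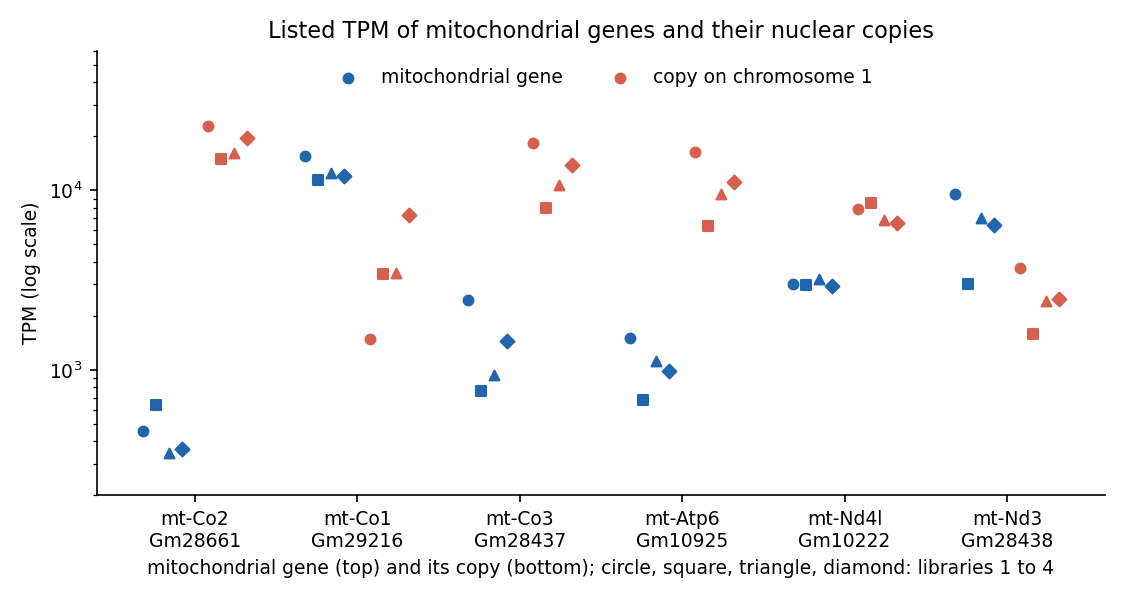
TPM of 6 mitochondrial genes (blue) and of their chromosome 1 copies (red) on a logarithmic axis, with a circle, square, triangle and diamond for young control libraries 1 to 4. The copy lies above the gene in every library for mt-Co2, mt-Co3, mt-Atp6 and mt-Nd4l, and below it for mt-Co1 and mt-Nd3.

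Summed over gene and copy, the 6 pairs ranged from 9051 TPM (mt-Nd3) to 18802 ± 3493 TPM (mt-Co2). The sums for mt-Co1, mt-Co3, mt-Atp6 and mt-Nd4l were 16764, 14084, 11930 and 10472 TPM. The 6 copies held 5.58 ± 1.24% of TPM, and with them the mitochondrial genes came to 15.4 ± 3.01%. The copies also made up nearly all of the unprocessed pseudogene biotype (5.66 ± 1.26% of TPM), which was the largest after protein-coding genes (92.0 ± 1.39%). Which of the 2 loci the RNA came from cannot be read from these values where the sequences are identical.

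By chromosome the ranking was uneven. Chromosome 4, with the Mup cluster, held 22.1 ± 4.86% of TPM. Chromosome 1 held 11.01 ± 1.42%, of which Apoa2 made up 29.4%, and the mitochondrial genome held 9.82 ± 1.84%. Chromosome 7 with Apoe held 9.34 ± 0.769%, and chromosome 5 with Alb held 5.94 ± 1.09%.

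Transcription factors stood far below secreted and metabolic genes. Of 78 listed transcription factors, 73 had a mean of 1 TPM or more, 37 of 10 or more and 4 of 100 or more, and their median was 7 TPM. Together they held 0.178% of TPM. The 4 highest were the stress factor Atf5 (171 ± 52.6 TPM), the RNA- and DNA-binding Ybx1 (147 ± 39.9 TPM), the hepatocyte factor Cebpa (137 ± 42.5 TPM) and the secretory regulator Xbp1 (116 ± 45.6 TPM).

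The hepatocyte factor Hnf4a stood at 52.1, 142, 69.2 and 96.9 TPM, with library 2 highest. Other liver nuclear receptors were lower: the bile acid receptor Nr1h4 at 44.4 ± 10.4 TPM, Nr1i3 at 36.5 ± 10.0 TPM, Ppara at 19.8 ± 4.63 TPM and Nr1i2 at 16.9 ± 4.98 TPM. Foxa2 stood at 18.0 ± 9.07 TPM. Of the 73 factors at 1 TPM or more, 62 were lowest in library 1, as were 75.9% of all genes with a mean of 10 TPM or more.

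Markers of both ends of the liver lobule were present in every library. Periportal genes are expressed near the incoming portal blood and pericentral genes near the central vein. All 18 periportal genes had a mean of 1 TPM or more and summed to 5476, 8574, 7890 and 8310 TPM. All 20 pericentral genes did too, and summed to 6836, 10142, 9076 and 9190 TPM. Glutamine synthetase (Glul), a marker of the cells next to the central vein, stood at 191, 343, 259 and 358 TPM. In both lists library 1 was lowest.

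Genes that follow feeding and time of day were looked at next. Of 21 fasting and feeding genes, 18 had a mean of 1 TPM or more, with a median CV of 45.7%. Fatty acid synthase (Fasn) stood at 61.2, 149, 227 and 305 TPM, and Pck1, an enzyme of gluconeogenesis, at 222, 155, 90.1 and 295 TPM. The order of libraries thus differed between the pair. The clock output Dbp was at 0.45 to 0.66 TPM and the clock gene Per1 at 0.11 to 0.79 TPM. The clock activator Arntl was at 2.54 to 9.35 TPM. In all, 14 of 20 clock genes had a mean of 1 TPM or more, with a median CV of 35.9%, near the median of all genes at 1 to 10 TPM. Immediate early genes were mostly low, with Fos at 0.31 to 0.84 TPM and Atf3 at 0.47 to 0.76 TPM, and Jund highest at 46.7 ± 4.80 TPM.

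RNA of other liver cell types was detected at far lower levels than that of hepatocytes. In bulk tissue, fewer cells of a type and less RNA per cell cannot be told apart. The 12 Kupffer cell and macrophage markers summed to 255, 361, 199 and 241 TPM, and all 12 had a mean of 1 TPM or more, with the lectin Clec4f at 58.6 ± 8.99 TPM. The 12 stellate cell and fibroblast markers summed to 150 ± 18.9 TPM, of which Ecm1 made 77.8 TPM. The 12 sinusoidal endothelial markers summed to 66.1, 90.6, 57.4 and 119 TPM, with Clec4g highest at 23.5 ± 10.7 TPM.

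Blood cell genes were also detected. Haemoglobin and other erythroid markers summed to 1453, 836, 1107 and 1991 TPM, highest in library 4 and lowest in library 2. B cell markers summed to 36.6 ± 7.38 TPM, T and NK cell markers to 8.54 ± 3.65 TPM and neutrophil markers to 5.29 ± 0.681 TPM, with Ly6g listed at 0. No label states whether the livers were perfused.

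Cholangiocyte markers summed to 29.8, 30.2, 31.8 and 52.8 TPM. Library 4 stood above the rest, as it did for the bile duct keratin Krt19, at 0.91, 1.39, 1.02 and 12.4 TPM, which accounts for part of the gap in the sum. Smooth muscle markers were also highest there, with sums of 7.02, 11, 7.71 and 24.2 TPM. Adipocyte markers summed to 4.35, 3.90, 3.79 and 14.4 TPM, with Adipoq at 1.35 TPM in library 4 and listed at 0 elsewhere. Mesothelial markers stayed under 1 TPM in sum in each library.

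Other organs left little trace. Of 11 pancreatic acinar markers, 8 were listed at 0 in all 4 libraries and the sum of 77.3 ± 14.2 TPM was nearly all Cela1 (72.4 ± 10.6 TPM). Ctrb1, a pancreatic chymotrypsinogen, stood at 15.5 TPM in library 4 and was listed at 0 elsewhere. Kidney tubule markers summed to 17.5, 0.66, 0.21 and 0.02 TPM, of which Kap made 16.7 TPM in library 1 while Slc12a1 was at 0 throughout. Of 6 skeletal muscle markers 3 were listed at 0. The part of other cells in the values of libraries 1 and 4 was not tested.

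Long noncoding RNA took little of the total: lincRNA genes held 0.134 ± 0.00806% of TPM. Among listed nuclear and long noncoding RNAs, the snoRNA host gene Gas5 was highest at 103 ± 23.1 TPM. The nuclear paraspeckle RNA Neat1 stood at 22.6, 12.5, 17.7 and 11.7 TPM and Malat1 at 11.7, 2.24, 4.96 and 5.60 TPM. Below the mitochondrial copies, the most abundant noncoding entries were an 18S-like ribosomal entry, CT010467.1, at 904 ± 248 TPM and the processed pseudogenes Gm12338, Gm10443 and Gm7536 at 778, 770 and 761 TPM.

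The spread between libraries was widest for low genes and depended on library 1. Over the 4144 genes with a mean of 10 TPM or more, the median CV was 24.7%, and 13.3% without library 1. The median was 33.1% between 1 and 10 TPM, 25.8% between 10 and 100, 20.1% between 100 and 1000, 21.5% between 1000 and 10000 and 19.4% above 10000 TPM. Without library 1 the same bins gave 21.02%, 13.6%, 10.7%, 12.1% and 14.1%. Of the 4144 genes, 384 (9.27%) had a CV under 10% and 237 (5.72%) a CV over 50%.

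**Figure D5:**
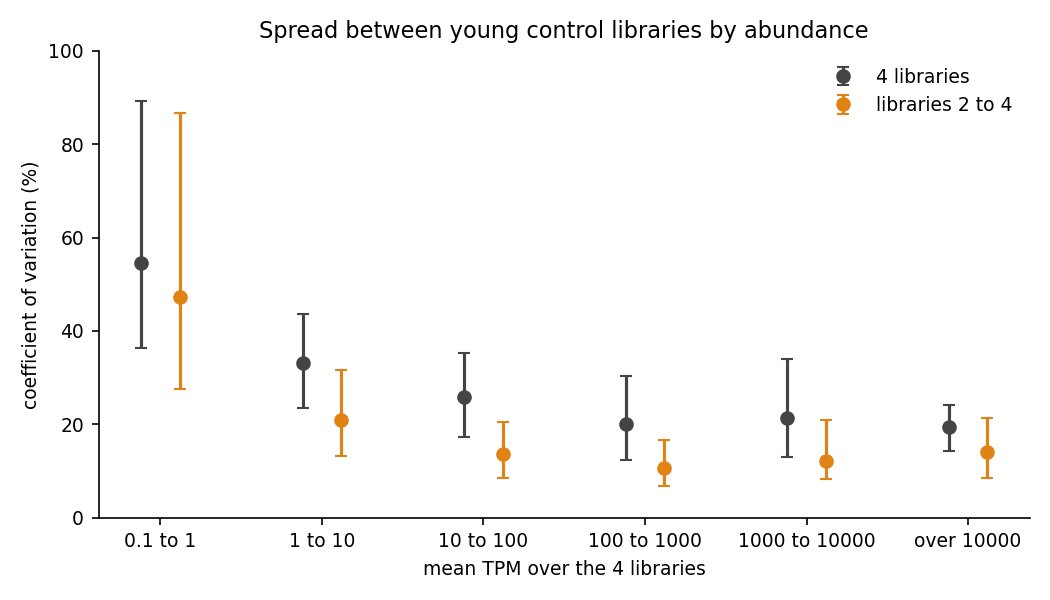
Coefficient of variation between young control libraries against mean TPM, as the median (point) and quartiles (bars) over genes in bins of mean level, for all 4 libraries and for libraries 2 to 4. Leaving out library 1 lowers the median at 10 to 100 TPM from 25.8% to 13.6%.

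By class, the median CV of single members was 39.5% for Mup, 30.9% for carbohydrate metabolism, 26.3% for cytochromes P450, 15.8% for ribosomal proteins and 14.9% for nuclear respiratory chain genes. Without library 1 carbohydrate metabolism fell to 8.21%, below ribosomal proteins at 12.2%, so the order of classes by spread changed. For class shares, 19 of 23 classes had a smaller CV without library 1.

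The steadiest genes belonged to several functions. The splicing factor Bud31 had the smallest CV among genes at 10 TPM or more, with 56.0, 56.3, 55.1 and 55.7 TPM (0.900%). The proteasome subunits Psmb6 (212 ± 3.95 TPM) and Psmb3 (155 ± 3.51 TPM), the haem synthesis enzyme Alad (126 ± 2.50 TPM) and H2-K1 followed with CVs between 1.86% and 2.26%. Common reference genes were wider than these, which were picked for their small CVs. The median CV of the 19 reference genes found was 22.6%, beside 24.7% for all genes with a mean of 10 TPM or more. The CV of Gapdh was 18.8%, that of Actb 22.5% and that of B2m 8.90%. Gapdh was lowest in library 1, with 1179, 1866, 1762 and 1662 TPM in libraries 1 to 4, as was Rplp0, with 173, 447, 336 and 408 TPM.

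At the other end, 12 of the 15 genes of largest CV had transcripts under 200 bases and 10 were copies of the 5S ribosomal RNA gene. Of the 15, 11 were listed at 0 in 3 libraries. Of 181 5S entries, 165 were at 0 in all 4 libraries, 14 were above 0 in a single library and none was above 0 in all 4. Their summed level was 803, 155, 142 and 629 TPM. The remaining 3 longer genes were protein-coding: H2-Q1, Hsd3b1 and Dmbt1.

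Some protein-coding genes were high in 1 library. A search chosen after the values were seen covered the 4556 protein-coding genes of at least 500 bases that reached 10 TPM in any library. It asked for a level at least 3-fold above or below all others, and found 9, 7, 1 and 8 genes high in libraries 1 to 4 and 60, 3, 0 and 0 genes low.

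In library 2 the high genes included the stress gene Gadd45g at 4.86, 52.2, 6.84 and 5.22 TPM, Phlda1 at 14.2, 153, 37.1 and 14.7 TPM and the protease inhibitor Mug1 at 90.5, 757, 223 and 231 TPM. Outside the search, Socs3, a feedback inhibitor of cytokine signalling, stood at 1.01, 7.64, 1.24 and 0.84 TPM and Myc at 0.89, 7.63, 0.94 and 0.63 TPM. With hepcidin, these genes were all highest in library 2 among the control libraries. So were 1901 of the 4144 genes with a mean of 10 TPM or more. Gadd45g stood at 73.85, 31.6, 89.04 and 5.04 TPM in aged/doxo libraries 1 to 4. In KSL0608-Se-treated libraries 1 to 4 it stood at 4.17, 2.92, 6.41 and 52.85 TPM. Mug1 stood at 462, 168, 295 and 176 TPM in aged/doxo liver and at 215, 613, 563 and 720 TPM in KSL0608-Se-treated liver. In library 4 the fatty acid hydroxylases Cyp4a14 (2.44, 2.45, 4.36 and 49.9 TPM) and Cyp4a10 (30.5, 20.6, 32.6 and 141 TPM) were high, as were the mucosal protein Dmbt1 (42.0 TPM) and Krt19. Over the libraries of the other groups Cyp4a14 ran from 1.33 to 38.03 TPM and Cyp4a10 from 14.83 to 167.56 TPM. Dmbt1 reached at most 2.47 TPM there and Krt19 at most 3.63 TPM.

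In library 1 the low genes were mostly metabolic and secretory ones, such as Gnmt, Cyp2c29, Scd1, urate oxidase (Uox; 251, 903, 773 and 857 TPM) and Aldh4a1 (1.05, 67.5, 30.6 and 37.96 TPM). Some genes that were high in library 1 had a relative or neighbour that was low there, in pairs picked after the values were seen. A low value there was common, since 75.9% of all genes with a mean of 10 TPM or more were lowest in library 1. The class I gene H2-Q1 stood at 577, 1.60, 2.13 and 3.05 TPM and its relative H2-Q10 at 715, 1751, 1607 and 1742 TPM. The steroid dehydrogenase Hsd3b1 stood at 76.4, 0, 0 and 4.99 TPM and Hsd3b3 at 29.8, 233, 211 and 177 TPM.

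Ccdc152 (chromosome 15, 3280070 to 3303526, minus strand) stood at 75.1, 4.68, 4.62 and 7.16 TPM. The selenium carrier Selenop (3268547 to 3280508, plus strand), whose 3′ end overlaps it, stood at 865, 1697, 1528 and 1370 TPM. The same combination was seen in aged/doxo library 2, with H2-Q1 at 837 and H2-Q10 at 274 TPM, Hsd3b1 at 58.5 and Hsd3b3 at 9.18 TPM, and Ccdc152 at 372 and Selenop at 200 TPM. Part of it was seen in aged/doxo library 4, with H2-Q1 at 41.97, Hsd3b1 at 44.4 and Hsd3b3 at 126 TPM. In KSL0608-Se-treated library 1 Hsd3b1 stood at 18.5 and Hsd3b3 at 139 TPM. Near-identical copies and genes that overlap on opposite strands are uncertain here, since no source used here states whether counting was by strand.

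Whether classes of the ranking differed from the rest of the series was tested by an exact two-sided permutation test of the 4 control libraries against the other 8, with 495 divisions and a smallest possible p of 0.00202. None of the 23 classes passed after Benjamini-Hochberg adjustment, and 1 had an unadjusted p under 0.05. That class was Mup, with a mean share of 19.6% in control liver and 12.3% in the rest, a difference of 7.30 percentage points (exact permutation p = 0.00404, adjusted p = 0.0929). Control libraries ran from 15% to 26.6% and the other 8 from 9.36% to 15.2%, so the groups overlapped only between library 4 and the highest of the rest. The mean was 12% in aged/doxo and 12.6% in KSL0608-Se-treated liver. The difference ran from 4.96 to 8.84 points when each library was left out in turn. With 495 divisions 1 class alone at the smallest p passes after adjustment (0.0465), but with the 330 or fewer divisions left without a library it cannot (0.0697 or more), so those adjusted values say nothing about stability. The smallest p among the remaining classes was 0.190 (exact permutation test, adjusted p = 0.883), for haemoglobin and erythroid genes with 0.136% against 0.183%. The mitochondrial share was 9.82% in control liver and 12.6% in the rest (exact permutation p = 0.501), where aged/doxo library 2 alone had 27.6%.

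Single genes were compared with limma on log2(TPM + 1), a scale that understates the change of low genes, as control minus the mean of the other 2 groups. Of 10883 genes with a mean of 1 TPM or more over all 12 libraries, 3 passed an adjusted p of 0.05 (0.0276%), all lower in control liver. None of the 100 genes of highest mean over all 12 libraries was among the 3. With control library 1 left out, 1 of the called genes was higher in control, and with control library 4 left out, 2 were. At an unadjusted p under 0.05 there were 12 of these 100 (12%), beside 235 (2.16%) of all genes tested. Of the 12, 10 were higher in control liver, 9 of them Mup genes (Mup1, Mup7, Mup9, Mup11, Mup12, Mup14, Mup15, Mup16 and Mup17) and the other Serpina1e. The lower ones were Gstm1 and the mitochondrial copy Gm10222. These genes share reads or a cluster and are not independent of each other.

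The median log2 difference was -0.06 over the 100 most abundant genes, 36 of which were positive, and -0.08 over all genes tested. With median-of-ratios scaling the median over all genes moved to 0.03, the unadjusted calls that were higher in control went from 69 of 235 to 205 of 325, and all 12 of the abundant genes were higher. Gstm1 and Gm10222 were thus no longer called lower under that scaling.

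Mup1 had the smallest p of the abundant genes. It stood at 9771, 4673, 6741 and 4274 TPM in control liver and between 2146 and 3736 TPM in the other 8 libraries, so the groups did not overlap. Its log2 difference was 1.04 ± 0.23 (SE; limma adjusted p = 0.754). Mup12 had a log2 difference of 1.06 ± 0.25 (2840 against 1293 TPM; limma adjusted p = 0.863). The 3 genes that passed lay far down the ranking. Gm45941 and Phlda3 were under 1 TPM in every control library and passed the filter on low values only through the other groups. Gm45941, a lincRNA, had 0.353 against 9.77 TPM (log2 difference -2.89 ± 0.27, limma adjusted p = 0.00132). Phlda3, a p53 target that restrains Akt, had 0.56 against 5.22 TPM (-1.94 ± 0.25, adjusted p = 0.0216). The cell cycle inhibitor Cdkn1a had 4.98 against 24.0 TPM (-2.16 ± 0.32, adjusted p = 0.0486). The number of genes that passed was 5 without control library 4 or without aged/doxo library 2. It was 1 without control library 3, without aged/doxo library 1, 3 or 4, and without KSL0608-Se-treated library 2 or 3.

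Promoter letters were counted along the ranking in RefSeq windows of 300 bases, 250 before and 50 after the transcript start, for 16785 protein-coding genes. Of the 30 most abundant genes, 16 had such a window. All shares below count both strands, and ranks are taken among these 16785 genes alone. The 100 most abundant here are therefore not the same set as the 100 highest of all genes. The TATA box (TATAAA) was found in 19% of the 100 most abundant, 11.8% of the ranks from there to 1000, 6.73% of ranks beyond 1000 up to 5000 and 6.33% of later genes at 1 TPM or more, beside 17.9% of genes under 1 TPM and 13.1% of all.

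The GC box (GGGCGG) ran the other way. It was found in 27% of the 100 most abundant, 54.7% of the ranks from there to 1000, 67.4% of ranks beyond 1000 up to 5000 and 33.4% of genes under 1 TPM, beside 47.8% of all. The core letters of ETS factor sites (CCGGAA) gave 13%, 27.3%, 33.8% and 10.1% in the same bins, beside 19.5% of all. In both motifs the share in the most abundant genes was closer to that of genes under 1 TPM than to that of ranks beyond 1000 up to 5000.

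The HNF4 site core (AAGTCCA) was found in 7% of the 100 most abundant, 5.33% of the ranks from there to 1000 and 3.94% of all. The CCAAT box was found in 45%, 43.9% and 39.0% of them. Median GC content was 50.3% in the 100 most abundant and 56.7% over all. The ratio of observed to expected CpG, the dinucleotide that is depleted outside CpG islands, had medians of 0.339 and 0.595. The windows of Mup copies resemble each other and are not independent. A match is only a run of letters and was not tested as a binding site.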

How the data were processed

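RNA of 12 mouse liver samples was sequenced, and the 4 young control libraries are described here. The values are TPM as deposited by the authors, 1 column per library, and fastp, HISAT and RSEM are named, without versions or roles, per the submitters' processing notes. No source used here gives the genome build, annotation, strand setting or read depth. TPM keeps no counts.

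Of 55903 genes, 55227 matched GENCODE M21 on GRCm38 by Ensembl identifier, which gave biotype, position and transcript length. Another 416 loci have no symbol. Promoters come from RefSeq on GRCm38.p6. Every column was assigned from its name and the sample descriptions. Ranks use the mean TPM of the 4 libraries, and spread is the SD or CV over them. A gene counts as detected at 1 TPM, and CVs are given from a mean of 10 TPM.

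Control was set against the other 8 libraries with an exact permutation test for 23 class shares, and with limma 3.58.1 (R 4.3.3) for 10883 genes on log2(TPM + 1), adjusted by Benjamini-Hochberg over all of them. The limma procedure was tested on simulated data of this comparison with 10883 genes and 20 draws, a set of genes being changed in each. It recovered 52.9% of 2-fold and 92.6% of 4-fold changes, with 9.15 false calls on average among the unchanged genes. Noise was drawn for each gene alone, so shifts shared by many genes, as in library 1, were not simulated. The rates may not hold for these libraries. Tables were made with Python 3.11.15, pandas 2.3.3, numpy 2.4.6 and scipy 1.17.1, and plots with matplotlib 3.10.9.

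Classes, lists and genes were chosen with earlier results of these data known. The named genes are the 30 most abundant, up to 6 leading members of each class, list members, the 15 of largest and smallest CV, genes at 0 in 1 library and at 10 TPM or more in the others, the 15 most abundant noncoding genes and the 5 of smallest p in each direction. Some of these genes are not reported here. Other genes are said to be chosen after their values were seen. Alternatives changed the total, unit, floor, pseudocount, filter, scaling, replicate block, promoter strand and the libraries used.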

Additional observations from a re-analysis of the deposited data

Results flagged for a closer look

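In 4 of 84 measures 1 control library lay far from the other 3, with a gap to its nearest neighbour above Dixon's critical value, as a part of the whole range. Chance marks about 1 in 20 groups in this way, and the measures share libraries. Proteasome and ubiquitin genes held 0.368% of TPM in library 1, against 0.5001%, 0.487% and 0.488% in libraries 2, 3 and 4. Cholangiocyte markers summed to 52.8 TPM in library 4, against 29.8, 30.2 and 31.8 TPM in libraries 1, 2 and 3. Adipocyte markers summed to 14.4 TPM in library 4, against 4.35, 3.90 and 3.79 TPM. Kidney tubule markers summed to 17.5 TPM in library 1, against 0.66, 0.21 and 0.02 TPM, nearly all of it from Kap.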

How the results depend on the processing

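Of 450 alternative values, 378 kept their direction, their side of the threshold or stayed within the spread, and no called value changed sign. Among class differences from the other 8 libraries, which were not called, 18 of 23 classes took the other sign in at least 1 setting, but Mup, mitochondrial and erythroid genes in none. With the Mup genes merged into 1 entry the 10 highest held 39.7% and 22.8 genes made up 50% of TPM. With TPM times length the 10 highest held 21.3%, the 100 highest 55.2%, 70.75 genes made up 50% and 2336 made up 90%, and the shares were 6.45% for mitochondrial genes, 13.3% for Mup and 7.06% for apolipoproteins. A floor of 5 TPM left 6012 genes. Mitochondrial genes held 15.4% with their chromosome 1 copies, and apolipoproteins 11.97% of the total without mitochondrial genes. With each control library left out, the median CV ran from 13.3% (without library 1) to 29.3%, the share of the 10 highest from 25.7% to 27.6% and the Mup share from 17.3% to 21.1%. The genes that passed limma's test numbered 1 without the filter on low values, and 1 to 5 with each library left out. On the gene strand alone, the CCAAT box was in 20% of the 100 most abundant genes with a promoter window, the GC box in 15% and the ETS core in 6%. The cause of these shifts was not tested, beyond what each alternative counts. Same-numbered libraries of different groups were no more alike than others. Their correlation had a median of -0.0135 over 12 pairs, from -0.58 to 0.39. Differently numbered libraries had a median of 0.0230 over 36 pairs, from -0.43 to 0.58. Shifts shared by many genes enter these correlations, so whether the samples were paired cannot be told from them. With the replicate block, 1 gene passed limma's test, Gm45941, and the Mup difference was 7.30 points (exact permutation p = 0.0123, adjusted p = 0.284), both the smallest that 1 class alone can reach there. Depth is unknown, so low values carry no counting error.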

Other observations

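Outside the comparisons, 8 genes were listed at 0 in 1 control library and at 10 TPM or more in the other 3. Gm9797, Tmem254c and Gm13835 were at 0 in library 1, Gm14567, Gm47441 and a locus without a symbol in library 2, and Gm3788 and Mir6236 in library 3.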
